A study of Homo sapiens with 9 samples.

Results

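Interferon-stimulated genes are the transcripts through which a cell answers interferon, and 45 of them were followed here across JAG1 knockout clone 1, JAG1 knockout clone 2 and wild-type cells. The 45 symbols, a list of genes known to respond to interferon, were matched by name in the deposited count tables, where RIG-I stands under its older symbol DDX58. All 45 were listed among the 56505 genes of the tables, and all 45 were among the 16921 genes with enough counts to be tested. They were sorted by role into 3 RIG-I-like receptors, 5 enzymes and related proteins that sense double-stranded RNA, 4 transcription factors, 5 genes of the ISG15 pathway, 3 genes of the PARP9, PARP14 and DTX3L group, 4 IFIT genes, 4 membrane effectors and 17 other effectors.

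Type I interferon binds the receptor chains IFNAR1 and IFNAR2, whose kinases JAK1 and TYK2 phosphorylate factors of the STAT family. With IRF9, STAT2 takes part in the complex ISGF3, which binds a DNA element called ISRE in the promoters of many interferon-stimulated genes, while interferon gamma acts through an element called GAS. The products sense viral nucleic acid, block translation, trap virions at membranes or feed back on the pathway. Many of them, among them STAT2, IRF7, IRF9 and the RIG-I-like receptors, are both parts of the pathway and its targets, and a set of them can also be transcribed at a low level in cells that were given no interferon, as is known of several cancer lines.

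The cells were of the line MDA-MB-231-D3H2LN, derived from the triple-negative human breast cancer line MDA-MB-231. They grew in DMEM rich in glucose with 10% serum, and no sample was labelled as given interferon. Clones 1 and 2 carry a CRISPR/Cas9 deletion in JAG1, a ligand of the Notch receptors: Cas9 with guide RNAs against separate places of 1 exon was transfected, and each clone was grown from a single cell and described as homozygous, so each clone is 1 line. The wild-type cells express JAG1 and are labelled Control. The labels give 3 replicates per group and do not state whether they came from separate cultures. The p-values therefore reflect no more than the variation among the libraries at hand, part or all of which may be technical.

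Total counts ran from 16890890 to 22456164 per library. JAG1 transcript was lower in clone 1 (log2 fold change -1.05, standard error (SE) 0.18, adjusted p = 0.00312) and in clone 2 (-1.55, SE 0.18, adjusted p = 0.00013) than in wild type. Over all genes, edgeR's quasi-likelihood test with Benjamini-Hochberg adjustment called 933 genes in clone 1 at an adjusted p under 0.05, 239 higher and 694 lower, and this split moved to 341 higher and 499 lower among the 14767 genes with a known GC content, once a trend with GC content and gene length was removed from each library. It called 1008 genes in clone 2, 543 higher and 465 lower. Between clone 2 and clone 1 it called 5733 genes, 3353 higher and 2380 lower. Transcripts of the breast cancer line's markers VIM, CD44, KRT8, KRT18 and AXL were abundant, and their sum was 3214 to 4000 CPM in clone 1, 5030 to 6748 CPM in clone 2 and 3336 to 4853 CPM in wild type. Of these 5, 2 were called lower in clone 1, 1 higher in clone 2 and 4 higher in clone 2 than in clone 1, where 4.10%, 3.21% and 19.8% of all genes were. ESR1, PGR, ERBB2 and CDH1, listed beforehand as low in such a line, summed to 76.9 to 85.3, 92.8 to 99.1 and 88.6 to 96.9 CPM in these groups. The T cell and erythroid markers had 0 counts in every library, as did the B cell marker MS4A1 and the plasmacytoid dendritic cell marker CLEC4C. The B cell markers MS4A1 and CD79A summed to 0.167 to 0.207 CPM in clone 1, 0.237 to 0.775 CPM in clone 2 and 0.101 to 0.508 CPM in wild type. The summed level of 5 myeloid markers was 6.35 to 9.94 CPM in clone 1, 2.80 to 7.05 CPM in clone 2 and 5.08 to 7.97 CPM in wild type, that of 3 endothelial markers 3.61 to 5.51, 2.14 to 3.0 and 2.19 to 4.44 CPM, and that of 3 plasmacytoid dendritic cell markers 2.09 to 2.85, 0.664 to 0.742 and 0.553 to 2.24 CPM in the same groups, and their part in the results was not tested. Mitochondrially encoded mRNA took 2.28, 3.61 and 4.91% of counts in clone 1, 0.843, 1.79 and 1.01% in clone 2, and 2.52, 3.67 and 1.66% in wild type, and its part in the results below was not tested.

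Promoter sequence was at hand for 26 of the 45 genes, from RefSeq on GRCh38.p14, as 300 bases that begin 250 bases before the gene's start. The core of the ISRE, spelled GAAANNGAAA and searched on both strands with overlapping matches counted, was found in 18 of the 26 promoters (69.2%) and in 1255 of 35116 promoters of all genes (3.57%). The GAS letters TTCNNNGAA, which read the same on both strands, were found in 8 of the 26 (30.8%) and in 2689 of the 35116 (7.66%). A match is a description of the letters and not a measured binding site. The following 5, picked after the values were seen, are shown because their genes differed between the groups in different ways: IFIT1, lower in clone 2 than in both other groups (chr10:89392373-89392672, plus strand), BST2, lower in each clone (chr19:17405581-17405880, minus strand), IFITM3, lower in clone 1 (chr11:320811-321110, minus strand), EPSTI1, lower in clone 2 (chr13:42992192-42992491, minus strand), and DDX58, higher in clone 2 (chr9:32526147-32526446, minus strand). Each reads 5′ to 3′ in the direction of the gene, and capitals mark the ISRE core or its reverse complement.
IFIT1: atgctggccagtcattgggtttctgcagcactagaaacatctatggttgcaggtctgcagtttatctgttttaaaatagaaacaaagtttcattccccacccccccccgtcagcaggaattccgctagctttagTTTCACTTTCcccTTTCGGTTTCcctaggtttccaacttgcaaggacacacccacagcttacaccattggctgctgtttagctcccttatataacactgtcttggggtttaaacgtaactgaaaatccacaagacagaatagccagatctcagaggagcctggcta
BST2: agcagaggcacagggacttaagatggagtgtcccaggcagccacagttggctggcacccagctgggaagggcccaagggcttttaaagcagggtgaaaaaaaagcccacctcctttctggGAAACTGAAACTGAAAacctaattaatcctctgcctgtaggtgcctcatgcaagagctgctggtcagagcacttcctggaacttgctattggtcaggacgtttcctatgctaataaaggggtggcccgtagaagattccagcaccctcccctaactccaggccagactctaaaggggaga
IFITM3: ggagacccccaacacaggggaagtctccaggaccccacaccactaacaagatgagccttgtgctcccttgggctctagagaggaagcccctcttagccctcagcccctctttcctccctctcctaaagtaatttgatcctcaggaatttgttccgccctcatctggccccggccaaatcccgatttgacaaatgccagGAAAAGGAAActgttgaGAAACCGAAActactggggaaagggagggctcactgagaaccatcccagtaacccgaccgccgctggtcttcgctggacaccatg
EPSTI1: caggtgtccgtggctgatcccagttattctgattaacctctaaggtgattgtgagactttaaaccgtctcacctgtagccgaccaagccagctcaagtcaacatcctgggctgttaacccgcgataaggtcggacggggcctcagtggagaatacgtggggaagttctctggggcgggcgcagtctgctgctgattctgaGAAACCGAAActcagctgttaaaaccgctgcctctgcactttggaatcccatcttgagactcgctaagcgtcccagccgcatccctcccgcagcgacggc
DDX58: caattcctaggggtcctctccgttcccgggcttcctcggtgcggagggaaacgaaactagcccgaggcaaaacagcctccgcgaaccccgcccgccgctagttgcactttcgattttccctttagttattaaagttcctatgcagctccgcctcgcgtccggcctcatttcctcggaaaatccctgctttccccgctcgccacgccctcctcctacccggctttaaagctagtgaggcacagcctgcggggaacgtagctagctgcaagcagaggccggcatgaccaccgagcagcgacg
The matches of IFIT1, BST2 and IFITM3 come in overlapping or neighbouring pairs, EPSTI1 has 1, and the DDX58 window has none in these letters. Their places relative to the start, counted to the centre of the match, are -111 and -98 in IFIT1, -125 and -119 in BST2, -47 and -30 in IFITM3 and -45 in EPSTI1. The median log2 fold change was close between the 18 genes with the core and the 8 without it: -0.47 and -0.40 in clone 1, and -0.57 and -0.53 in clone 2, each against wild type. The 26 genes leave out OASL, IFI27, DHX58, IFI44 and IFIT3, among others, and the medians of all 45 were -0.33 and -0.72. Of the 8 without the core, DDX58, OAS1 and IFI35 hold its letters with 1 base fewer in the middle.

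In wild-type cells the genes spanned a wide range of TPM, a level corrected for length and depth that was computed here from the counts. IFITM3, which keeps viral membranes from fusing with the cell, was the highest at 491 ± 34.0 TPM (SD, n = 3). ISG15, a ubiquitin-like modifier, followed at 168 ± 38.4 TPM. BST2 (tetherin), at 80.8 ± 28.4 TPM, IFITM2 at 78.9 ± 15.7 TPM and IFITM1 at 59.4 ± 26.6 TPM came next. Between BST2 and IFITM2, and between IFITM2 and IFITM1, the difference is less than the larger SD of the pair. At the low end were XAF1 at 0.672 ± 0.280 TPM, MX2 at 0.594 ± 0.246 TPM and IFI44L at 0.303 ± 0.130 TPM. The 45 genes summed to 1112, 1004 and 813 TPM in clone 1, 1037, 1070 and 1065 TPM in clone 2, and 1377, 1482 and 1262 TPM in wild type. Every library of either clone lay below every wild-type library in this sum, of which IFITM3 and ISG15 make up a large part.

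**Figure D1:**
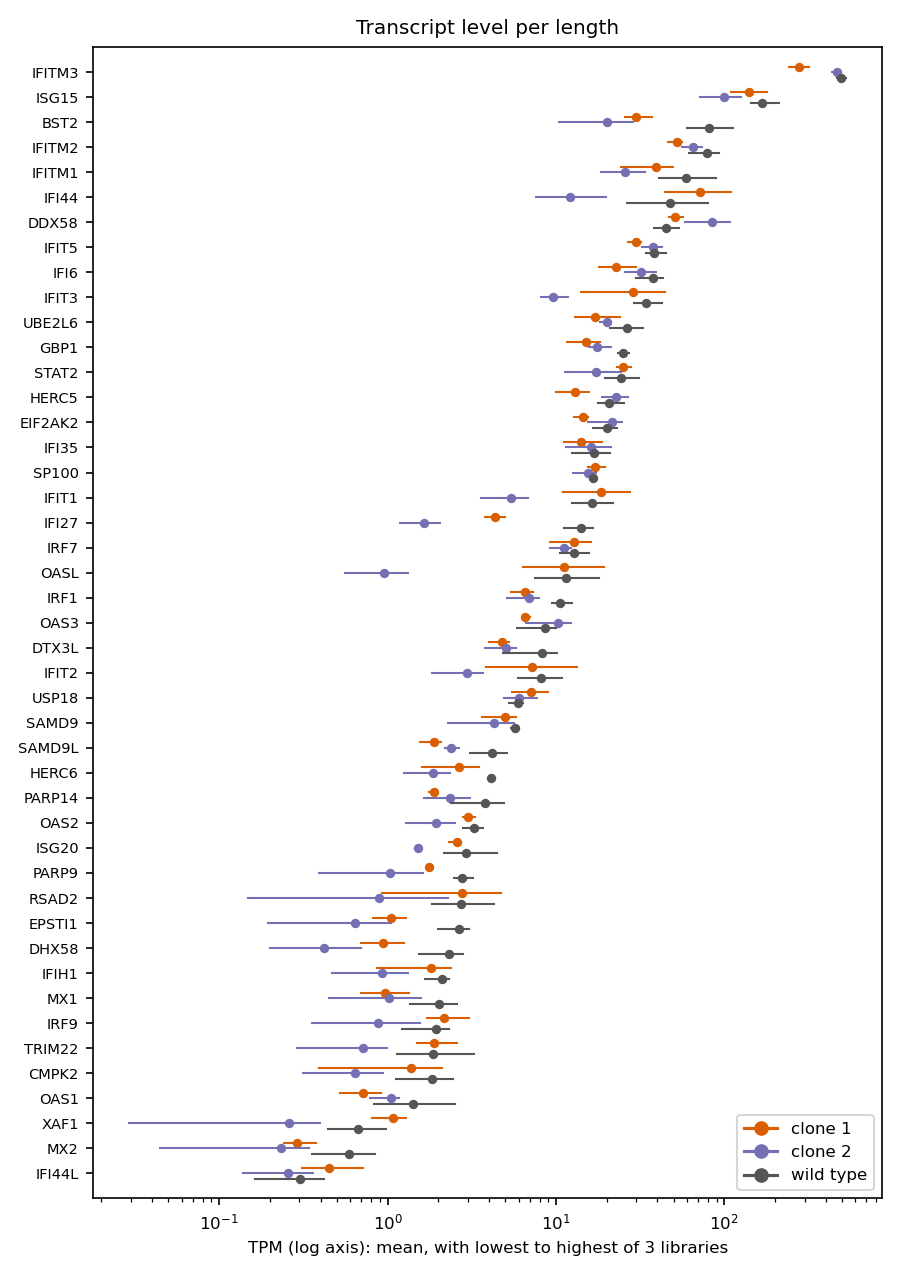
Level of each of the 45 genes in TPM on a log axis, with the genes in the order of their wild-type mean with the mean as a point and a line from the lowest to the highest of 3 libraries, for clone 1, clone 2 and wild type. IFITM3, at 491 ± 34.0 TPM in wild type, stands far above IFI44L, at 0.303 ± 0.130 TPM.

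Across the list, values were lower in the clones than in wild type, and further so in clone 2. The median log2 fold change of the 45 genes was -0.33 in clone 1, beside -0.02 for all genes tested, and -0.72 in clone 2, beside 0.00. It was below 0 for 33 of 45 genes in clone 1, beside 8722 of all 16921 genes, and for 39 of 45 in clone 2, beside 8436 of 16921. Both comparisons use the same 3 wild-type libraries, so their errors are shared. In each library, the median log2 ratio of the 45 genes to their wild-type mean was -0.29, -0.32 and -0.73 in clone 1, -0.89, -0.79 and -0.68 in clone 2, and -0.11, 0.20 and -0.14 in wild type. The libraries of both clones lay below those of wild type in this median. In a bulk sample, fewer cells carrying a transcript and less of it per cell cannot be told apart.

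**Figure D2:**
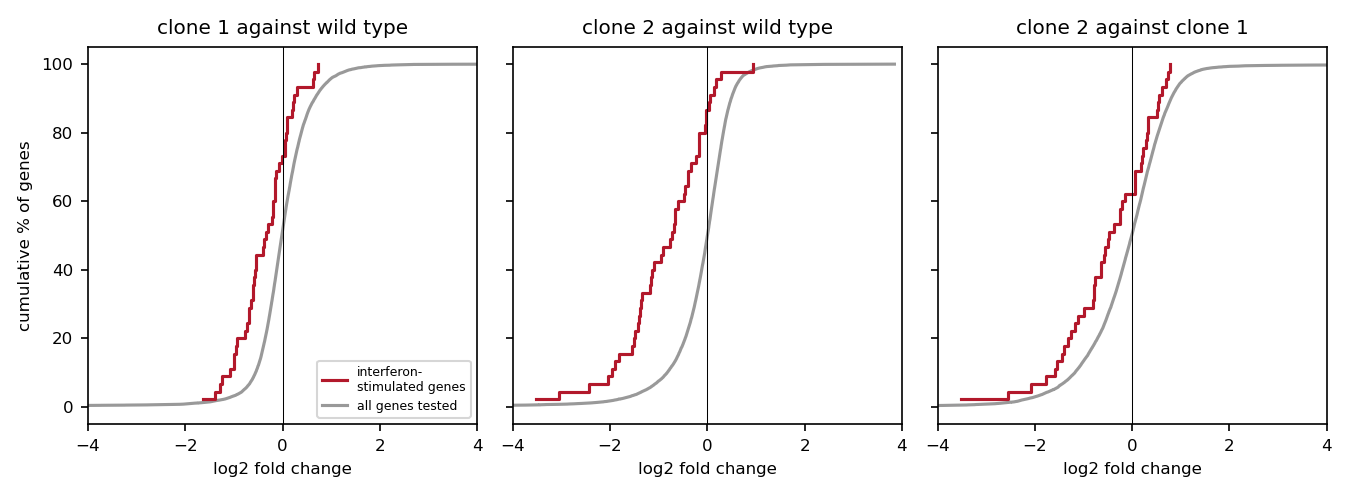
Cumulative percent of genes by log2 fold change, for the 45 interferon-stimulated genes and for all 16921 genes tested, with a panel for clone 1 against wild type, clone 2 against wild type and clone 2 against clone 1. At the middle of each curve the 45 genes lie to the left of all genes, with medians of -0.33, -0.72 and -0.48, while the horizontal axis is cut short of the most extreme genes.

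Of the 45 genes, 7 were called lower in clone 1 (IRF1, PARP14, IFITM3, BST2, SAMD9L, GBP1 and IFI27), where 4.10% of all genes tested were called lower and 5.51% were called in either direction. The number called higher was 0 by edgeR, where 1.41% of all genes were called higher. It was 0 at an unadjusted p under 0.05 and 0 by DESeq2, beside 1345 and 518 of all 16921 genes. In clone 2, 9 were called lower (DHX58, OASL, PARP9, IFIT1, IFIT3, IFITM1, BST2, IFI27 and EPSTI1), where 2.75% of all genes were, and 1 was called higher (DDX58), where 3.21% of all genes were, and 5.96% of all genes were called in either direction. With the replicate number as a block, since same-numbered libraries of clone 2 and wild type deviated together from their group means, 22 genes were called lower and 1 higher in clone 2, against 6.92% and 9.03% of all genes. In clone 1 the block gave 12 lower and 1 higher (IFI44), against 9.28% and 4.44% of all genes. Without the block, the counts depended on single libraries, as did those over all genes. For clone 1, leaving out clone 1 replicate 1, 2 or 3 gave 2, 3 and 1 calls, beside 383, 330 and 200 of all genes. Leaving out wild-type replicate 2 or 3 gave 2 and 3, beside 436 and 278, where the full fit called 933 genes. For clone 2, the count was 4 without clone 2 replicate 3, beside 237 of all genes. It was 6 without wild-type replicate 1 or 2, beside 297 and 238, where the full fit called 1008.

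Counted by libraries that do not overlap, 16 genes had all 3 clone 1 libraries below all 3 wild-type libraries, where 16.5% of all genes did, and 0 had them all above, where 13.1% of all genes did. For clone 2 the count was 23 below, where 11.7% of all genes lay, and 1 above, where 14.2% of all genes lay. DDX58 was the gene above.

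**Figure D3:**
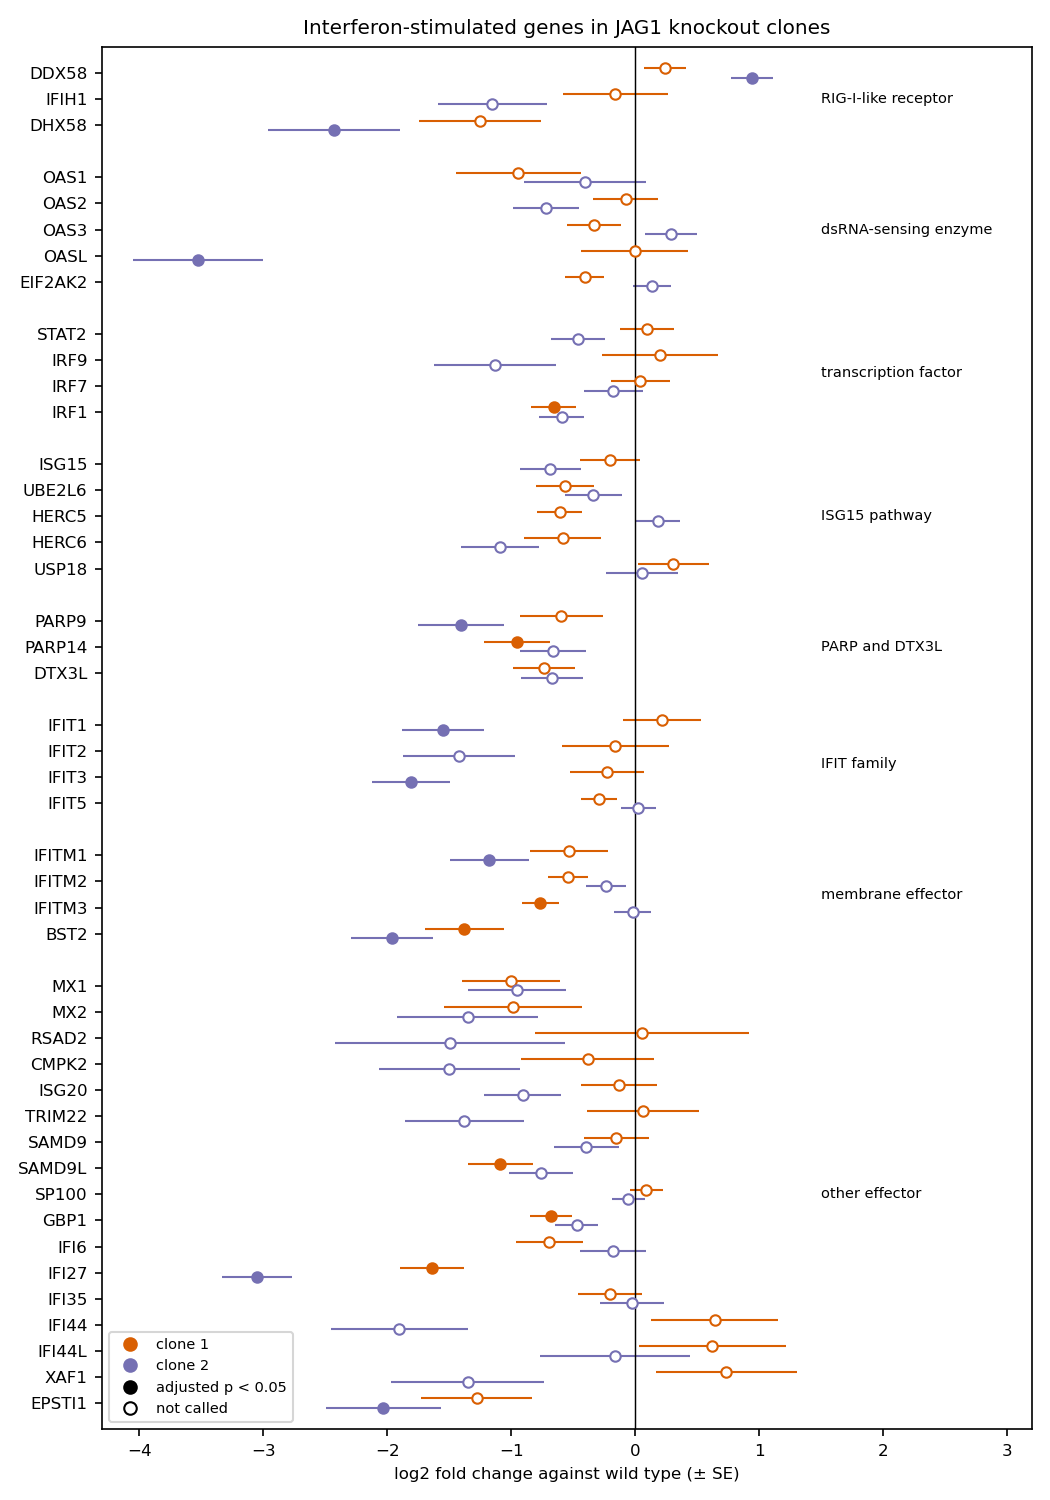
Log2 fold change of each of the 45 genes against wild type, with its SE as a bar, for clone 1 and clone 2, and with the genes grouped by role. OASL, at -3.53 in clone 2 and -0.00 in clone 1, and IFI27, at -3.05 in clone 2 and -1.64 in clone 1, reach furthest to the left.

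**Figure D4:**
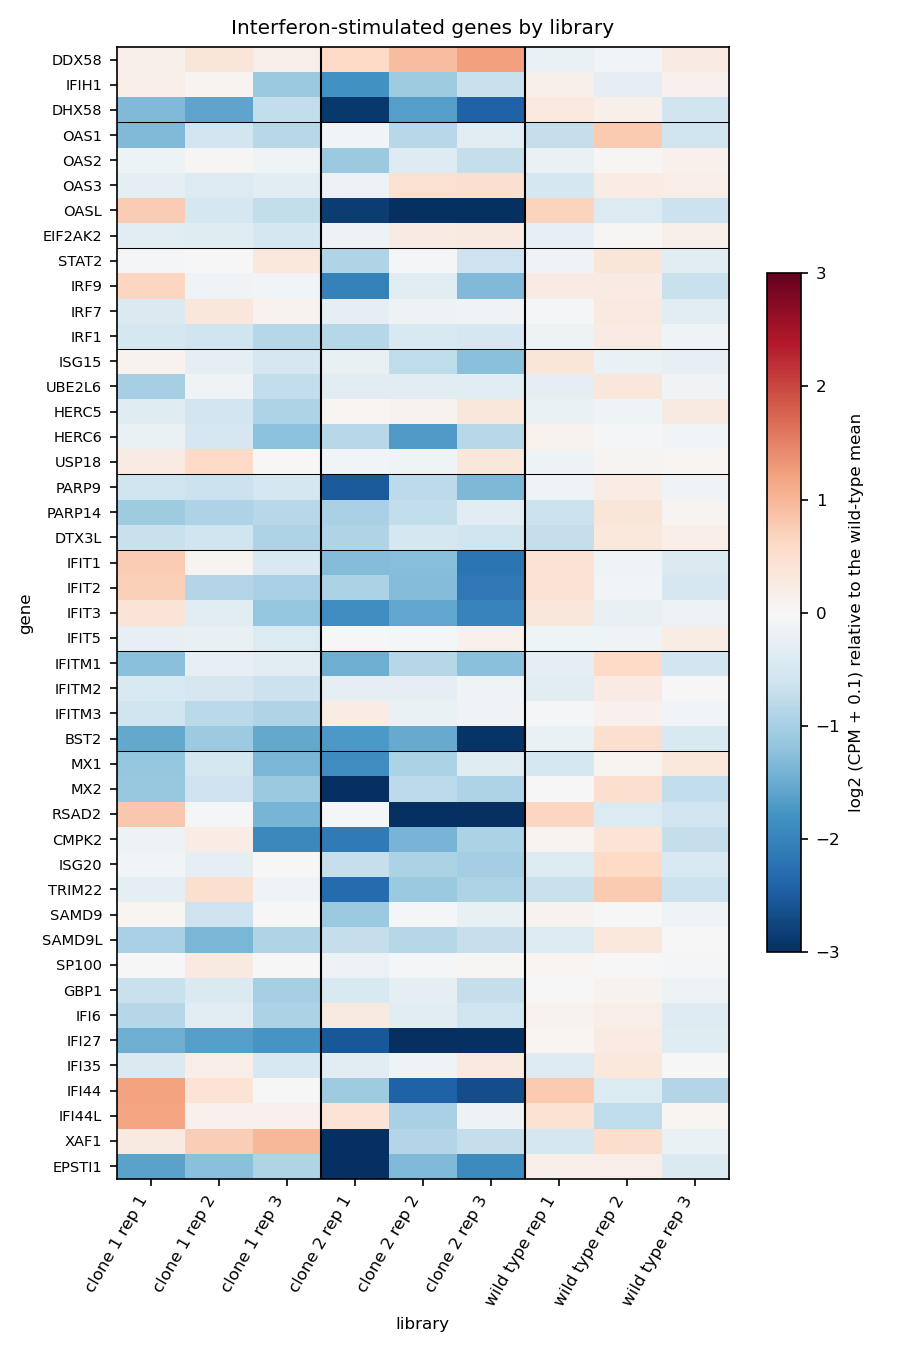
Log2 ratio of each of the 45 genes to its wild-type mean in every library (columns: clone 1, clone 2, wild type, 3 libraries each), computed from CPM with 0.1 added, on a colour scale that ends at 3 log2 units either way. OASL, IFI27 and EPSTI1 are low in all 3 clone 2 libraries, and DDX58 is the gene above every wild-type library in all 3 of them.

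Interferon ligands were not detected. IFNA1, IFNA2, IFNB1, IFNE, IFNK, IFNW1, IFNG, IFNL1, IFNL2 and IFNL3 had 0 counts in all 9 libraries, which allows up to 3 counts in a library, covering counting error only. In CPM (counts scaled to the depth of the library) this limit is 0.134 to 0.178. It was computed from the total counts, without the TMM factors that scale the other CPM values. Of the 6 receptor genes tested, 1 was called lower in clone 2, where 2.75% of all genes were. This was IFNGR1, the ligand-binding chain of the interferon gamma receptor, at 44.9, 44.3 and 35.0 CPM in clone 2, 63.5, 67.6 and 72.0 CPM in clone 1 and 70.7, 71.8 and 53.4 CPM in wild type. Clone 2 lay below both other groups in every library, with a log2 fold change of -0.66 (SE 0.15, adjusted p = 0.0212) against wild type and -0.71 (adjusted p = 0.00249) against clone 1. The call against wild type ended without clone 2 replicate 3 (adjusted p = 0.113), wild-type replicate 1 (0.0875) or wild-type replicate 2 (0.0912), and in a fit of the 6 libraries compared (0.0585). IFNAR1 and IFNAR2 had log2 fold changes of 0.02 and 0.17 in clone 1 and -0.07 and -0.11 in clone 2, and did not pass the test.

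Among 14 signalling and feedback genes of the pathway, 2 were called lower in clone 1 and 1 in clone 2, where 4.10% and 2.75% of all genes were. Against clone 1, 3 were higher and 1 lower in clone 2, where 19.8% and 14.1% of all genes were. JAK1, the receptor-bound kinase, differed by -0.64 in clone 1 (adjusted p = 0.0423) and by 1.03 between clone 2 and clone 1 (adjusted p = 0.000482). STAT3, a STAT factor best known downstream of IL-6 family cytokines, differed by -0.55 in clone 1 (adjusted p = 0.044) and by 0.95 between the clones (adjusted p = 0.000349). The clone 1 calls of JAK1 and STAT3 ended when any of the 3 clone 1 libraries, clone 2 replicate 2, or wild-type replicate 2 or 3 was left out (adjusted p between 0.061 and 0.266 in these fits), and that of STAT3 also with RLE size factors (0.0557). Once GC content and length were corrected for, both missed the threshold (0.0501 for JAK1 and 0.0934 for STAT3). PTPN2, a phosphatase that acts on JAK and STAT proteins, was lower in clone 2 than in wild type (log2 fold change -0.56, adjusted p = 0.0201), a call that ended without clone 2 replicate 3, wild-type replicate 1 or wild-type replicate 2 (adjusted p between 0.0586 and 0.101), and in a fit of the 6 libraries compared (0.0547). Against clone 1 it was lower as well in clone 2 (-0.46, adjusted p = 0.0113), and IRF2BP2, a corepressor of IRF2, was higher (0.53, adjusted p = 0.00727), a call that ended without clone 2 replicate 3 (0.0559).

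The RIG-I-like receptors moved apart in clone 2. DDX58 encodes RIG-I, the cytosolic sensor of RNA with a triphosphate end, and had 60.4, 69.8 and 61.5 CPM in clone 1, 81.7, 103 and 127 CPM in clone 2, and 47.0, 51.5 and 63.7 CPM in wild type. Every clone 2 library lay above every other library, while clone 1 and wild type overlapped. DDX58 was higher in clone 2 than in wild type (log2 fold change 0.94, SE 0.17, adjusted p = 0.00491) and than in clone 1 (0.70, SE 0.17, adjusted p = 0.00485), and both calls held without any 1 library. In clone 1 its log2 fold change was 0.24 (adjusted p = 0.419).

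DHX58 encodes LGP2, a regulator of RIG-I and MDA5 that lacks their signalling domains. It had 0.932, 0.761 and 1.45 CPM in clone 1, 0.247, 0.726 and 0.380 CPM in clone 2, and 3.06, 2.79 and 1.61 CPM in wild type. Both clones lay below wild type in every library. It was called lower in clone 2 (log2 fold change -2.43, SE 0.53, adjusted p = 0.0162) and did not pass in clone 1 (-1.25, SE 0.49, adjusted p = 0.148). The clone 2 call ended without clone 2 replicate 3 (adjusted p = 0.0731), wild-type replicate 1 (0.0778) or wild-type replicate 2 (0.0730). IFIH1, which encodes MDA5, the sensor of long double-stranded RNA, had 3.06, 2.81 and 1.17 CPM in clone 1, 0.680, 1.21 and 1.61 CPM in clone 2, and 2.91, 2.12 and 2.87 CPM in wild type. Clone 2 lay below wild type in every library, but the log2 fold change of -1.15 did not pass the test (SE 0.44, adjusted p = 0.125), nor did that of -0.16 in clone 1 (adjusted p = 0.859).

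Of the genes for enzymes and related proteins that sense double-stranded RNA, OASL differed the most. OASL is related to the oligoadenylate synthetases, has no synthetase activity and is known to enhance RIG-I signalling. It had 19.1, 7.75 and 6.68 CPM in clone 1, 1.48, 0.533 and 0.949 CPM in clone 2, and 18, 8.46 and 7.19 CPM in wild type. Clone 1 and wild type covered the same range, and all clone 2 libraries lay well below it. Its log2 fold change was -3.53 in clone 2 against wild type (SE 0.52, adjusted p = 0.00241) and -3.52 against clone 1 (SE 0.52, adjusted p = 0.000394), and it was -0.00 in clone 1 (SE 0.43, adjusted p = 0.997). Both clone 2 calls held without any 1 library.

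OAS3, a synthetase whose product activates RNase L, had 16.4, 14.9 and 15.6 CPM in clone 1, 17.6, 27.1 and 27.4 CPM in clone 2, and 13.6, 23.0 and 22.5 CPM in wild type. It was higher in clone 2 than in clone 1 (log2 fold change 0.62, SE 0.21, adjusted p = 0.0354), without overlap, but this call ended once GC content and length were corrected for (0.39, adjusted p = 0.121). It also ended when any clone 1 library, clone 2 replicate 2 or 3, or wild-type replicate 3 was left out, with adjusted p up to 0.145. EIF2AK2 encodes PKR, the kinase that stops translation through eIF2alpha, and had 47.0, 46.7 and 41.3 CPM in clone 1, 53.4, 71.0 and 72.2 CPM in clone 2, and 50.4, 61.4 and 67.4 CPM in wild type. Clone 1 lay below both other groups, and clone 2 and wild type overlapped. The difference between clone 2 and clone 1 was 0.54 in log2 units (SE 0.16, adjusted p = 0.0136), and it missed the threshold without clone 1 replicate 3, clone 2 replicate 2 or clone 2 replicate 3 (adjusted p up to 0.0707). OAS1 and OAS2, the other synthetases, had log2 fold changes of -0.94 and -0.08 in clone 1 and -0.40 and -0.72 in clone 2, and passed in no comparison.

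Of the 4 transcription factors, 1 was called lower in clone 1, where 4.10% of all genes were. In clone 2, edgeR called 0, where 2.75% of all genes were called lower. DESeq2 called 1 lower, beside 893 of all 16921 genes, and 3 were lower at an unadjusted p under 0.05, beside 1882. IRF1, a factor induced by interferon gamma among other signals, had 16.0, 15.2 and 12.7 CPM in clone 1, 12.8, 16.9 and 16.2 CPM in clone 2, and 20.9, 27.2 and 21.2 CPM in wild type. Both clones lay below wild type in every library. It was called lower in clone 1 (log2 fold change -0.66, SE 0.18, adjusted p = 0.0434), and in clone 2 the value was -0.59 (SE 0.18, adjusted p = 0.0616, and 0.0177 with the replicate block). The clone 1 call ended with RLE size factors (adjusted p = 0.0519), once GC content and length were corrected for (0.082), and without any clone 1 library, clone 2 replicate 2 or 3, or wild-type replicate 2 or 3 (up to 0.199). Genes on the opposite strand share 22% of the exon bases of IRF1, so its count is uncertain.

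STAT2, the ISGF3 subunit that carries the main activation domain, had 39.9, 41.4 and 51.2 CPM in clone 1, 22.2, 40.6 and 27.0 CPM in clone 2, and 38.3, 53.1 and 32.6 CPM in wild type. The groups overlapped, and the log2 fold change was 0.09 in clone 1 (adjusted p = 0.836) and -0.47 in clone 2 (adjusted p = 0.205, and 0.0476 with the replicate block). IRF9, the DNA-binding subunit of ISGF3, had 3.26, 1.90 and 1.95 CPM in clone 1, 0.433, 1.60 and 0.759 CPM in clone 2, and 2.48, 2.45 and 1.26 CPM in wild type. Against clone 1, clone 2 was lower without overlap (log2 fold change -1.33, SE 0.49, adjusted p = 0.0476), while against wild type the value was -1.13 (adjusted p = 0.173). The call between the clones ended in the fit of those 6 libraries alone (adjusted p = 0.0579) and without any clone 1 library, clone 2 replicate 1 or 3, or wild-type replicate 1 or 2 (up to 0.181). In addition, 48.4% of the exon bases of IRF9 are shared with an overlapping gene on the same strand, so the count is uncertain. IRF7, which drives type I interferon genes, had 6.89, 12.0 and 10.2 CPM in clone 1, 7.79, 8.43 and 8.78 CPM in clone 2, and 9.13, 11.6 and 7.54 CPM in wild type, with overlap throughout and log2 fold changes of 0.04 and -0.18 in clones 1 and 2 (adjusted p = 0.942 and 0.698).

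In the ISG15 pathway, which joins the modifier ISG15 to other proteins, edgeR called 0 of 5 genes in clone 1 and 0 of 5 in clone 2. At an unadjusted p under 0.05, 2 were lower in each clone, beside 2347 of all 16921 genes in clone 1 and 1882 in clone 2. DESeq2 called 1 lower in each, beside 961 and 893 of all genes. ISG15 itself had 47.5, 36.1 and 30.7 CPM in clone 1, 37.9, 26.0 and 18.3 CPM in clone 2, and 56.4, 38.5 and 37.0 CPM in wild type. In every group replicate 1 was the highest, and the groups overlapped. Its log2 fold change was -0.20 in clone 1 (adjusted p = 0.663) and -0.69 in clone 2 (adjusted p = 0.109, and 0.00106 with the replicate block). HERC5, the main ligase that attaches ISG15, had 21.2, 18.2 and 14.2 CPM in clone 1, 28.6, 29.4 and 34.5 CPM in clone 2, and 23.9, 24.9 and 33.0 CPM in wild type. Clone 1 lay below both other groups, and clone 2 was higher than clone 1 (log2 fold change 0.79, SE 0.18, adjusted p = 0.00387), a call that held without any 1 library. Against wild type its log2 fold change was -0.61 in clone 1 (adjusted p = 0.0616) and 0.18 in clone 2 (adjusted p = 0.579). UBE2L6, the conjugating enzyme for ISG15, HERC6, a related ligase, and USP18, the protease that removes ISG15 and dampens the receptor, had log2 fold changes of -0.56, -0.59 and 0.30 in clone 1 and -0.34, -1.09 and 0.06 in clone 2. HERC6 lay below wild type in every library of either clone. In clone 2 its adjusted p by edgeR was 0.0535, and with the replicate block it was called (-1.10, adjusted p = 0.0133).

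PARP14 and PARP9, ADP-ribosyltransferase family members, and DTX3L, the ubiquitin ligase that pairs with PARP9, were lower in the clones in most libraries. PARP9 had 4.51, 4.37 and 4.73 CPM in clone 1, 1.11, 3.92 and 2.66 CPM in clone 2, and 6.27, 8 and 6.34 CPM in wild type. PARP14 had 5.23, 5.75 and 6.18 CPM in clone 1, 5.57, 6.59 and 8.83 CPM in clone 2, and 7.04, 14.3 and 11.8 CPM in wild type. Both lay below wild type in every clone 1 library, and in clone 2 only PARP14 overlapped with it. PARP9 was called in clone 2 (log2 fold change -1.40, SE 0.35, adjusted p = 0.0285) and not in clone 1 (-0.60, adjusted p = 0.313). PARP14 was called in clone 1 (-0.95, SE 0.27, adjusted p = 0.049) and not in clone 2 (-0.66, adjusted p = 0.144). Between clone 2 and clone 1 the difference was -0.81 for PARP9 (adjusted p = 0.0845) and 0.29 for PARP14 (adjusted p = 0.425).

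The PARP9 call ended without clone 2 replicate 3, wild-type replicate 1 or wild-type replicate 2 (adjusted p up to 0.119) and in a fit of the 6 libraries compared (0.0683). That of PARP14 ended with RLE size factors (0.0569), once GC content and length were corrected for (0.0556), and without any clone 1 library, clone 2 replicate 2, or wild-type replicate 2 or 3 (up to 0.203). DTX3L had 8.34, 8.75 and 7.02 CPM in clone 1, 7.11, 9.25 and 8.83 CPM in clone 2, and 8.06, 16.8 and 15.3 CPM in wild type. Wild-type replicate 1 lay within the range of the clones, and the log2 fold changes of -0.74 in clone 1 (adjusted p = 0.0998) and -0.67 in clone 2 (adjusted p = 0.12) did not pass, and in clone 2 it did with the replicate block (-0.64, adjusted p = 0.0443). PARP9 and DTX3L share 217 exon bases on opposite strands, and the sources used here give no strand setting for the counting.

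The IFIT genes, whose products bind viral RNA or its cap and each other, divided by clone. IFIT1, which binds caps that lack methylation at the ribose, had 35.7, 22.3 and 15.2 CPM in clone 1, 8.54, 8.62 and 4.51 CPM in clone 2, and 28.4, 19.3 and 15.5 CPM in wild type. IFIT3, a partner that stabilises IFIT1, had 33.2, 20.3 and 11.2 CPM in clone 1, 6.87, 8.47 and 6.26 CPM in clone 2, and 32, 21.5 and 22.2 CPM in wild type. For both genes all clone 2 libraries lay below all others, and clone 1 and wild type overlapped. IFIT1 was lower in clone 2 than in wild type (log2 fold change -1.55, SE 0.33, adjusted p = 0.0183) and than in clone 1 (-1.76, SE 0.33, adjusted p = 0.00155). The values of IFIT3 in these comparisons were -1.81 (SE 0.31, adjusted p = 0.00547) and -1.58 (SE 0.31, adjusted p = 0.0019). In clone 1 the values were 0.21 for IFIT1 (adjusted p = 0.734) and -0.23 for IFIT3 (adjusted p = 0.697).

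IFIT2, a further IFIT partner, had 15.4, 5.09 and 4.73 CPM in clone 1, 4.82, 3.73 and 2.04 CPM in clone 2, and 12.7, 8.84 and 6.64 CPM in wild type. Clone 2 lay below wild type in every library but overlapped with clone 1. It was called between clone 2 and clone 1 (log2 fold change -1.26, SE 0.45, adjusted p = 0.0456), missed the threshold in clone 2 against wild type (-1.42, adjusted p = 0.0769, and 0.000511 with the replicate block), and was at -0.16 in clone 1 (adjusted p = 0.862). Without clone 1 replicate 1 its difference between the clones was -0.48 (adjusted p = 0.343), and it also missed the threshold without clone 2 replicate 2 (0.0801) or 3 (0.17). The clone 2 calls against wild type ended without clone 2 replicate 3 for IFIT1 (0.0845) and IFIT3 (0.0605), and without wild-type replicate 1 for IFIT1 (0.0722), while the calls of these genes between the clones held without any 1 library. IFIT5, which binds RNA ends outside the complex of the others, had 35.5, 36.2 and 32.1 CPM in clone 1, 41.9, 40.8 and 46.7 CPM in clone 2, and 38.9, 39.1 and 49.2 CPM in wild type, and passed in no comparison.

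**Figure D5:**
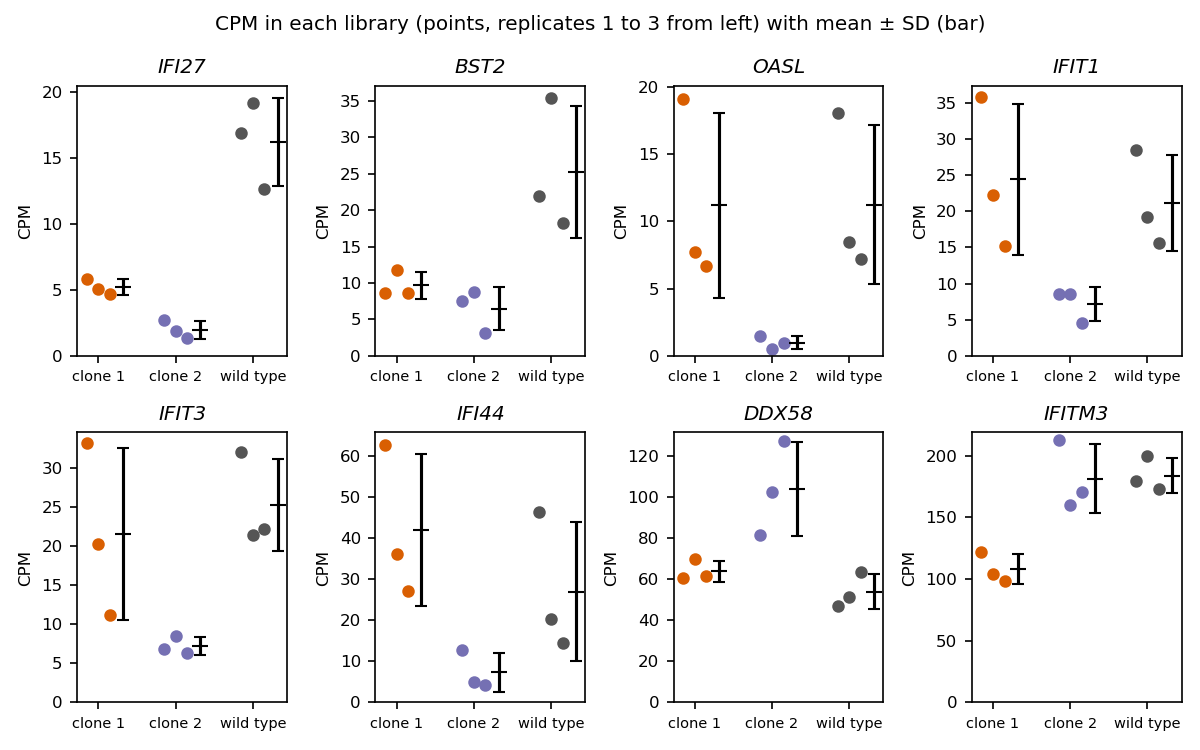
CPM in each library for IFI27, BST2, OASL, IFIT1, IFIT3, IFI44, DDX58 and IFITM3, as points, with the mean ± SD of the 3 libraries as a bar, for clone 1, clone 2 and wild type. The clone 2 libraries lie below the wild-type libraries for OASL, IFIT1, IFIT3, BST2, IFI27 and IFI44, and above them for DDX58, while for IFITM3 the clone 1 libraries are the lowest.

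Membrane effectors showed the lowest values in clone 1 for IFITM3 and in clone 2 for BST2 and IFITM1. BST2, or tetherin, which holds budding virions at the cell surface, had 8.65, 11.8 and 8.58 CPM in clone 1, 7.55, 8.72 and 3.18 CPM in clone 2, and 21.9, 35.4 and 18.2 CPM in wild type. Every library of either clone lay below every wild-type library, and the clones overlapped. BST2 was lower in clone 1 (log2 fold change -1.38, SE 0.32, adjusted p = 0.0253) and in clone 2 (-1.96, SE 0.33, adjusted p = 0.00411). The clone 2 call held without any 1 library, while the clone 1 call ended without any of the 3 clone 1 libraries or wild-type replicate 2 (adjusted p between 0.0544 and 0.117).

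IFITM3 had 122, 104 and 98.2 CPM in clone 1, 213, 160 and 170 CPM in clone 2, and 179, 200 and 173 CPM in wild type. Clone 1 lay below both other groups, which overlapped. Its log2 fold change was -0.77 in clone 1 (SE 0.15, adjusted p = 0.00892), -0.02 in clone 2 (SE 0.15, adjusted p = 0.947) and 0.74 in clone 2 against clone 1 (SE 0.15, adjusted p = 0.00166). The clone 1 call missed the threshold without clone 1 replicate 3 (-0.71, adjusted p = 0.0696). IFITM1, which acts at the plasma membrane, had 7.46, 15.1 and 14.4 CPM in clone 1, 6.37, 9.88 and 7.40 CPM in clone 2, and 14.5, 27.1 and 12.0 CPM in wild type. Clone 2 lay below wild type in every library, and clone 1 overlapped with both. It was called lower in clone 2 (log2 fold change -1.18, SE 0.32, adjusted p = 0.0436), but without wild-type replicate 2 the value was -0.76 (adjusted p = 0.217). That call also ended once GC content and length were corrected for (0.0664), in a fit of the 6 libraries compared (0.0564), and without clone 1 replicate 2 or 3, clone 2 replicate 1 or 3, or wild-type replicate 1 (up to 0.196). IFITM2, which acts in endosomal membranes, was at -0.54 in clone 1 (adjusted p = 0.0604) and -0.23 in clone 2 (adjusted p = 0.395). IFITM1 and IFITM2 share 351 exon bases on the same strand and are close copies of IFITM3, of whose exon bases 21.3% are shared with a gene on the opposite strand, so the counts of all 3 are uncertain.

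IFI27, a small hydrophobic protein of mitochondria and other membranes, differed in all 3 comparisons. It had 5.85, 5.09 and 4.68 CPM in clone 1, 2.72, 1.89 and 1.33 CPM in clone 2, and 16.9, 19.2 and 12.6 CPM in wild type. No groups overlapped, with clone 2 the lowest and wild type the highest. Its log2 fold change was -1.64 in clone 1 (SE 0.26, adjusted p = 0.00186), -3.05 in clone 2 (SE 0.28, adjusted p = 1.14e-05) and -1.41 in clone 2 against clone 1 (SE 0.28, adjusted p = 0.00153). All 3 calls held without any 1 library.

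EPSTI1, named for its induction in breast epithelium grown with stroma, had 1.14, 1.47 and 1.89 CPM in clone 1, 0.309, 1.40 and 0.902 CPM in clone 2, and 4.08, 4.19 and 2.66 CPM in wild type. Both clones lay below wild type in every library. It was called lower in clone 2 (log2 fold change -2.03, SE 0.47, adjusted p = 0.0206) and did not pass in clone 1 (-1.28, SE 0.45, adjusted p = 0.105). The clone 2 call ended without clone 2 replicate 3 (adjusted p = 0.0801), wild-type replicate 1 (0.0777) or wild-type replicate 2 (0.0908). SAMD9L, which blocks translation, had 4.20, 3.14 and 4.40 CPM in clone 1, 5.01, 4.55 and 5.12 CPM in clone 2, and 6.27, 10.3 and 8.35 CPM in wild type. GBP1, a guanylate-binding protein that coats pathogen membranes, had 21.9, 25.9 and 17.4 CPM in clone 1, 25.4, 28.7 and 21.4 CPM in clone 2, and 35.2, 37.8 and 31.6 CPM in wild type. Both genes lay below wild type in every library of either clone.

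SAMD9L was called in clone 1 (log2 fold change -1.09, SE 0.26, adjusted p = 0.0258), with -0.76 in clone 2 (adjusted p = 0.0853), and GBP1 was called in clone 1 (-0.68, SE 0.17, adjusted p = 0.0319), with -0.47 in clone 2 (adjusted p = 0.108). In clone 2 both passed with the replicate block, at adjusted p = 0.0459 for SAMD9L and 0.0203 for GBP1. The clone 1 call of SAMD9L ended without any clone 1 library or wild-type replicate 2 or 3 (up to 0.111), and that of GBP1 without clone 1 replicate 1 or 3 or wild-type replicate 2 or 3 (up to 0.169).

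A further set of effectors was set apart by the difference between the clones. IFI44, a protein of uncertain function that is among the common markers of an interferon response, had 62.8, 36.2 and 27.2 CPM in clone 1, 12.9, 4.94 and 4.18 CPM in clone 2, and 46.3, 20.2 and 14.5 CPM in wild type. Clone 2 lay below both other groups, which overlapped. Its log2 fold change between clone 2 and clone 1 was -2.54 (SE 0.56, adjusted p = 0.00696), a call that ended without a filter on low counts (adjusted p = 0.0536) and when clone 2 replicate 2 (0.0555) or 3 (0.0733) was left out. Against wild type it was 0.64 in clone 1 (adjusted p = 0.507) and -1.90 in clone 2 (adjusted p = 0.0729). With the replicate block IFI44 was called lower in clone 2 (-1.89, adjusted p = 9.02e-09). In that fit it was called higher in clone 1 (0.73, adjusted p = 0.00188), where the replicate numbers do not pair the libraries by the measured correlations.

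XAF1, which antagonises the apoptosis inhibitor XIAP, had 1.5, 2.14 and 2.56 CPM in clone 1, 0.0619, 0.629 and 0.712 CPM in clone 2, and 0.826, 1.82 and 1.06 CPM in wild type. Its clone 2 values rest on 1, 13 and 15 counts. TRIM22, an antiviral ligase of the tripartite motif family, had 2.54, 4.42 and 2.90 CPM in clone 1, 0.557, 1.40 and 1.61 CPM in clone 2, and 1.94, 5.5 and 1.96 CPM in wild type. Clone 2 was the lowest group for both, without overlap with either of the others. Against clone 1 the log2 fold change was -2.09 for XAF1 (SE 0.62, adjusted p = 0.0163) and -1.44 for TRIM22 (SE 0.48, adjusted p = 0.0305), and against wild type it was -1.35 for XAF1 (adjusted p = 0.194) and -1.38 for TRIM22 (adjusted p = 0.0961). With the replicate block TRIM22 was called lower in clone 2 than in wild type (-1.31, adjusted p = 0.0277). The XAF1 call ended without clone 1 replicate 3 (adjusted p = 0.0656), and 38.3% of its exon bases are shared with the antisense gene PRAL. That of TRIM22 ended without clone 1 replicate 2 (0.121) or 3 (0.0568) or clone 2 replicate 1 (0.0871).

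The other effectors passed in no comparison of the edgeR fit used throughout, which has no replicate block. MX1, a dynamin-like GTPase active against influenza virus, had 2.07, 3.28 and 1.78 CPM in clone 1, 1.24, 2.42 and 3.70 CPM in clone 2, and 3.3, 5.04 and 6.03 CPM in wild type. Its relative MX2, which restricts HIV, had 0.932, 1.38 and 0.947 CPM in clone 1, 0.186, 1.21 and 1.09 CPM in clone 2, and 2.14, 3.09 and 1.26 CPM in wild type. MX1 overlapped with wild type in clone 2, and MX2 in clone 1. The log2 fold changes were -1.0 and -0.95 for MX1 (adjusted p = 0.148 and 0.153) and -0.99 and -1.35 for MX2 (adjusted p = 0.314 and 0.157) in clones 1 and 2. With the block MX1 was called lower in clone 2 (-1.0, adjusted p = 0.0486). RSAD2, or viperin, had 6.47, 3.57 and 1.34 CPM in clone 1, 3.53, 0.194 and 0.332 CPM in clone 2, and 5.83, 2.75 and 2.41 CPM in wild type. In each group replicate 1 was above the other libraries, and the log2 fold change in clone 2 was -1.50 (SE 0.93, adjusted p = 0.362, and 0.00753 with the replicate block). CMPK2, the neighbour of RSAD2 and a nucleotide kinase, was at -0.38 in clone 1 and -1.50 in clone 2, and the exonuclease ISG20 at -0.13 and -0.91, called in clone 2 with the block (-0.87, adjusted p = 0.0485). The rest lay between -0.69 for IFI6 and 0.62 for IFI44L in clone 1 and between -0.39 for SAMD9 and -0.03 for IFI35 in clone 2, with SP100, a nuclear body protein, at 0.09 and -0.05.

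A direct comparison of the clones called 14 of the 45 genes, 5 higher and 9 lower in clone 2 than in clone 1, where 19.8% and 14.1% of all genes were called higher and lower, and 33.9% in either direction. The count of higher genes lies below that background share. Those higher in clone 2 were DDX58, OAS3, EIF2AK2, HERC5 and IFITM3. Those lower were OASL, IRF9, IFIT1, IFIT2, IFIT3, TRIM22, IFI27, IFI44 and XAF1. Their libraries did not overlap for 12 lower and 8 higher genes of the 45, where 21.6% and 25.8% of all genes did not. The median log2 fold change was -0.48, beside -0.01 for all genes. Without clone 2 replicate 3 the count of calls was 9, where 3639 of all genes were called. The calls of DDX58, OASL, HERC5, IFIT1, IFIT3, IFITM3 and IFI27 held without any 1 library.

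The order of replicates within a group was compared across groups. OASL, ISG15, IFIT2, RSAD2, IFI44 and IFI44L had their highest CPM in replicate 1 of clone 1, of clone 2 and of wild type, which is 6 of 45 genes (13.3%), close to the 10.3% of all genes tested that showed it. DTX3L, IFITM1, BST2, MX2 and GBP1 had theirs in replicate 2 of all 3 groups, which is 5 of 45 (11.1%), where 4.78% of all genes did. The labels do not say what a replicate number stands for. Within the replicate 1 libraries alone, OASL had 19.1 CPM in clone 1, 1.48 CPM in clone 2 and 18 CPM in wild type, and IFI44 had 62.8, 12.9 and 46.3 CPM in these groups.

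The wider pathway was read from lists that hold none of the 45 genes. Of 22 genes for other nucleic acid sensors and their adaptors, 18 were tested. In clone 1, 0 were called by edgeR and 0 by DESeq2, where these called 933 and 1479 of all 16921 genes. At an unadjusted p under 0.05, 1 was higher and 5 lower, beside 1345 and 2347 of all genes. By edgeR, 2 were higher and 1 lower in clone 2 than in wild type, where 3.21% and 2.75% of all genes were. In clone 2, TRAF3, an adaptor on the way to type I interferon, was higher than in wild type (log2 fold change 0.59, adjusted p = 0.0267), as was SAMHD1, which depletes nucleotides (0.66, adjusted p = 0.0392), and TANK, a scaffold of the TBK1 kinase, was lower (-0.82, adjusted p = 0.012). The TANK call ended without wild-type replicate 2 (adjusted p = 0.0805), and those of TRAF3 and SAMHD1 when clone 1 replicate 2, clone 2 replicate 2 or 3, or wild-type replicate 1 or 2 was left out (between 0.0536 and 0.187), SAMHD1 also without clone 1 replicate 3 (0.0506). In a fit of the 6 libraries compared both missed the threshold (0.0704 for TRAF3 and 0.0828 for SAMHD1). Against clone 1, 8 of the 18 were higher and 4 lower, where 19.8% and 14.1% of all genes were. These included SAMHD1 (1.18, adjusted p = 0.000238), TRAF3 (0.83, adjusted p = 0.000629), the RIG-I ligase TRIM25 (0.83, adjusted p = 0.00135), the RNA-editing enzyme ADAR (0.67, adjusted p = 0.00268) and TMEM173, which encodes STING (-0.93, adjusted p = 0.00217).

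Of 50 further interferon-stimulated genes, 45 were tested, and 3 were called lower in clone 1, where 4.10% of all genes were. In clone 2, 4 were higher and 6 lower, where 3.21% and 2.75% of all genes were. Against clone 1, 7 were higher and 1 lower in clone 2, where 19.8% and 14.1% of all genes were. The median log2 fold change of this list was -0.23 in clone 1, -0.01 in clone 2 and 0.06 between clone 2 and clone 1. The medians of the 45 genes of the main list were -0.33, -0.72 and -0.48, and the difference between the lists was not tested. WARS, the tryptophan transfer RNA synthetase that interferon gamma induces, was lower in clone 1 (log2 fold change -0.52, adjusted p = 0.0375) and higher in clone 2 (0.51, adjusted p = 0.0382), and it differed by 1.03 between clone 2 and clone 1 (adjusted p = 9.71e-05). CD274, which encodes the checkpoint ligand PD-L1, was higher in clone 2 than in wild type (1.07, adjusted p = 0.00576) and than in clone 1 (0.79, adjusted p = 0.006). LAP3, an aminopeptidase, was higher in clone 2 than in wild type (0.71, adjusted p = 0.0304) and than in clone 1 (0.79, adjusted p = 0.00356). CNP, a phosphodiesterase, was higher in clone 2 than in wild type (0.51, adjusted p = 0.0408) and than in clone 1 (0.88, adjusted p = 0.0003), and SHISA5 was higher than in clone 1 (0.59, adjusted p = 0.00428). Against wild type, the clone 2 calls of WARS, CNP and LAP3 ended when clone 1 replicate 2, clone 2 replicate 3, or wild-type replicate 1 or 2 was left out, and those of WARS and CNP also without clone 1 replicate 1 or clone 2 replicate 2, and WARS without clone 1 replicate 3 (adjusted p between 0.0503 and 0.19). The clone 1 call of WARS ended without any clone 1 library, clone 2 replicate 2, or wild-type replicate 2 or 3 (adjusted p up to 0.219), and with GC content and length corrected for (0.0856). In clone 2, the calls of WARS and CNP were also lost without the filter on low counts (0.0568 and 0.0562) and in a fit of the 6 libraries compared (0.0965 and 0.0707), and that of CNP with the GC correction (0.0573). CD274 held in these fits.

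The genes of this list called lower in clone 2 than in wild type are given to complete the count and were picked after their values were seen. TNFSF10, the death ligand TRAIL, had 4.40, 5.75 and 4.62 CPM in clone 1, 1.61, 4.07 and 1.71 CPM in clone 2, and 11.4, 28.9 and 7.99 CPM in wild type. Both clones lay below wild type in every library, with log2 fold changes of -1.71 in clone 1 (adjusted p = 0.0416) and -2.70 in clone 2 (adjusted p = 0.00644). APOL6, an apolipoprotein L family member, was lower by a log2 fold change of -1.14 in clone 1 (adjusted p = 0.0223) and -1.14 in clone 2 (adjusted p = 0.022). In clone 2 its relative APOL1 (-1.06, adjusted p = 0.0451), the immunoproteasome subunit gene PSMB9 (-1.05, adjusted p = 0.0389) and GBP3, a guanylate-binding protein (-0.59, adjusted p = 0.0263), were lower too. RTP4 had 16 counts in clone 1, 0 in clone 2 and 31 in wild type, summed over 3 libraries, and was called in clone 2 (adjusted p = 0.043). These 6 clone 2 calls ended without clone 2 replicate 3, and all but that of TNFSF10 without wild-type replicate 2 (adjusted p between 0.0604 and 0.202), while those of RTP4, APOL1, PSMB9 and GBP3 also ended without wild-type replicate 1, and those of RTP4, APOL1 and PSMB9 without further single libraries. The clone 1 calls of TNFSF10 and APOL6 ended without any clone 1 library or wild-type replicate 2 (0.0755 to 0.161), that of TNFSF10 also without clone 2 replicate 1 or 3 and that of APOL6 without wild-type replicate 3. Without wild-type replicate 2 the log2 fold change of TNFSF10 in clone 1 was -0.95. In a fit of the 6 libraries compared, the threshold was missed by TNFSF10 in clone 1 (0.0527, and 0.0527 with the GC correction) and by GBP3, APOL1, APOL6 and PSMB9 in clone 2 (0.055 to 0.0792).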

How the data were processed

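RNA sequencing covered 3 groups of MDA-MB-231-D3H2LN cells with 3 libraries each. Per the labels' protocols, a sequencing service made paired-end libraries of 150 bases from column-extracted RNA. The authors deposited whole-number counts per gene in 2 tables, 1 table per clone beside wild type. All 3 wild-type columns were the same in both tables and were used once, and 0 other sample columns were present. STAR, featureCounts, Subread, DESeq2 and GRCh38 are named per the submitters' processing notes. The sources used here give neither their versions and roles nor the annotation release and strand setting, so reads of genes that overlap, on either strand, cannot be assigned to one of them with certainty.

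The counts were tested with edgeR 4.0.16 in R 4.3.3 (limma 3.58.1): TMM factors, a filter by filterByExpr (minimum count 10, by group), and the robust quasi-likelihood fit, in which the 3 groups of 9 libraries share 1 spread (6 residual degrees of freedom, biological coefficient of variation 20.3%). Tests are two-sided, with Benjamini-Hochberg adjustment over the 16921 genes tested and calls under 0.05. The SE is the log2 fold change divided by the square root of F. CPM uses TMM-scaled library sizes, and TPM also uses the exon lengths in the files. The code was tested on simulated data. The chi-square per gene between libraries of a group was 17.4 to 61.9, far above sampling noise, so each library counts as 1 sample. Limits from counts cover counting error only, since no molecular identifiers mark independent molecules.

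The members and lists were chosen with earlier results of these data known, so no test of the list as a whole was made. Genes called in any comparison are described in full, and the others by class, with values for the transcription factors, the RIG-I-like receptors, the 3 highest in wild type and the 3 with the largest change on the same side in both clones. Further lists are given by counts with up to 5 named genes. A few genes are not reported here.

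Replicate numbers are shared between groups. Deviations from group means correlated between same-numbered libraries at 0.223 to 0.269 for clone 2 and wild type, and all 3 libraries of each group matched best with their own number, so a fit with the number as a block is given there for each of the 45 genes whose call it changes. For clone 1 and wild type the range was -0.10 to 0.24, and for clone 1 and clone 2 it was -0.02 to 0.22. Also tried were DESeq2 1.42.0, RLE size factors, all genes without the filter, a fit of the 6 libraries compared, a GC and length correction (87.3% of tested genes), the block with that correction, and leaving out each library.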

Additional observations from a re-analysis of the deposited data

Results flagged for a closer look

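In 14 of the 45 genes the level differed between the clones, by edgeR's test of clone 2 against clone 1 at an adjusted p under 0.05 over all genes. The log2 difference between clone 2 and clone 1 was 0.70 for DDX58, 0.62 for OAS3, 0.54 for EIF2AK2, 0.79 for HERC5 and 0.74 for IFITM3. It was -3.52 for OASL, -1.33 for IRF9, -1.76 for IFIT1, -1.26 for IFIT2, -1.58 for IFIT3, -1.44 for TRIM22, -1.41 for IFI27, -2.54 for IFI44 and -2.09 for XAF1. Since 33.9% of all genes tested differed between the clones, a difference in 14 of 45 genes is close to what the genome as a whole showed. Each clone is 1 line, so effects of the JAG1 deletion, differences between clones and differences between the places cut in JAG1 cannot be told apart.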

How the results depend on the processing

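Of the values in the report, the counts of calls moved the most. In clone 1, the 7 calls became 13 with the replicate block, 12 lower and 1 higher (IFI44). They became 14 with the block and the GC correction, and ranged from 1 to 10 as each library was left out. In clone 2, the 10 calls became 23 with the replicate block, 24 with the block and that correction, and 17 with DESeq2, and ranged from 4 to 12 as each library was left out. Between clone 2 and clone 1, the 14 calls became 22 with the replicate block and ranged from 9 to 15 as each library was left out. In the fits with the block, 13.7%, 16.0% and 42.0% of all genes were called in these comparisons. DESeq2 called 1818 of all genes in clone 2. As each library was left out, the calls over all genes ranged from 200 to 1301 in clone 1, from 237 to 1584 in clone 2 and from 3639 to 5782 between the clones. The median log2 fold change of the 45 genes ranged from -0.51 to -0.25 in clone 1, from -0.93 to -0.60 in clone 2 and from -0.53 to -0.30 between the clones as each library was left out, and the value of -0.93 is without wild-type replicate 1. In no alternative did a called gene change direction. In clone 1 the replicate numbers do not pair the libraries by the measured correlations, so the count with the block is a description, as is that between the clones. The cause of these moves was not tested. At the lowest levels (XAF1, MX2 and IFI44L, under 1 TPM in wild type) counting error limits what could be detected. Some calls also rest on few counts in clone 2, with 4, 15 and 8 for DHX58, 5, 29 and 19 for EPSTI1, 7, 33 and 16 for IRF9 and 1, 13 and 15 for XAF1.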
